A study of Mus musculus with 8 samples.

Results

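Chemokines are small secreted proteins that guide migrating cells, and chemokine receptors are the membrane proteins that read them. The genes described here were the protein-coding mouse genes whose symbol is Ccl, Cxcl, Ccr or Cxcr followed by a digit. By symbol alone, 54 of 21631 protein-coding genes on the autosomes and X were chosen. Of these, 53 had a usable position: 36 encode ligands and 17 encode receptors. Another ligand gene, Ccl21c, was taken as not placed and was not analysed further. Around each gene, the accessible regions were taken whose summit lay inside the gene or within 20 kb of it. In total, 318 of the 138385 accessible regions of the series met this rule.

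Ligands bind receptors coupled to inhibitory G proteins on leukocytes, and the receptor then steers the cell along the ligand gradient. In bone marrow, CXCL12 made by stromal cells holds progenitors through CXCR4, while ligands of CXCR2 draw neutrophils out. Inflammatory CC ligands such as CCL2, CCL3 and CCL5 recruit monocytes and other leukocytes through receptors such as CCR1 and CCR2, and most of these genes stand in tandem arrays left by gene duplication.

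Open chromatin had been profiled by ATAC-seq, in which a transposase inserts adapters where DNA is exposed, in leukemic granulocyte-macrophage progenitors (L-GMPs). All 8 libraries came from bone marrow of mice with acute myeloid leukemia driven by the fusion oncogene MLL-AF9, and the cells had been sorted as CD34+CD16/32+ cells of the c-Kit+ and Lin-Sca-1- gate. The 2 libraries named 4S-A carried DEK, a chromatin-binding protein, with 4 serines replaced by alanine (genotype Dek-Ser306A/Ser308A/Ser311A/Ser312A). Of the 3 knockout (KO) libraries, KO 1 and KO 2 were Dekfl/fl with MX1-Cre, a Cre under an interferon-inducible promoter, and KO 3 was Dekfl/fl with Tie2-Cre, a Cre active in endothelial and hematopoietic cells. Of the 3 control (FL) libraries, FL 1 and FL 2 were Dekfl/fl without Cre and FL 3 was Dek+/+. KO 1, KO 2, FL 1 and FL 2 are called the Mx1-Cre set below, and the other libraries, both 4S-A ones included, the Tie2-Cre set. The sets are named after their KO libraries, and the genotypes of the FL and 4S-A libraries name no Cre. The labels do not say whether libraries of a group came from separate animals, so a p-value measures only the spread between these libraries.

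Lists held 94725 to 104605 peaks in 4S-A, 56245 to 93041 in KO and 51510 to 91586 in FL, and read depth is unknown. The Tie2-Cre lists were all longer than the Mx1-Cre lists, so set and list length cannot be told apart. Every strength given below is a percentile, the rank of a peak's −log10 q within its own list, where 100 is the strongest. A longer list adds weak peaks at its lower end and so raises the percentile of a region that did not change, and ranks from lists of different lengths show no change by themselves. All 7 L-GMP marker genes examined, Kit, Cd34, Fcgr3, Mpo, Elane, Prtn3 and Ctsg, had a peak within 20 kb in all 8 libraries. So did all 8 monocyte and macrophage markers, all 6 T and NK cell markers and all 5 B cell markers, beside 5 of 6 endothelium and stroma markers and 2 of 4 erythroid markers. The share over all protein-coding genes was 73.96%. A peak within 20 kb therefore did not tell the monocyte, T, NK and B cell markers from those of L-GMPs. In sorted bulk cells, fewer cells with an open site and weaker opening in each cell cannot be told apart.

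Promoter sequences are shown for the genes whose promoter accessibility the results turn on. Cxcl1, Cxcl2 and Cxcl3 encode closely related neutrophil attractants, and only the promoter of Cxcl2 held a peak in all 8 libraries. Cxcl9 and Cxcl10 encode interferon-induced ligands of CXCR3, and of these only Cxcl10 held a promoter peak in all 8 libraries. Cxcr2 encodes the receptor for the Cxcl1 to Cxcl3 products. Each line gives the 250 bases before the RefSeq transcription start in GRCm38.p6 (mm10), 5′ to 3′ on the gene's strand, with motif matches in capitals.
Cxcl2: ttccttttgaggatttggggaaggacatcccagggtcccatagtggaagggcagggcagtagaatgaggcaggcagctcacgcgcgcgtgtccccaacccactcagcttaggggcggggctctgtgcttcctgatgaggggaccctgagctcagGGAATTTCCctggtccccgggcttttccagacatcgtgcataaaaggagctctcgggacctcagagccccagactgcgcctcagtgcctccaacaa
Cxcl1: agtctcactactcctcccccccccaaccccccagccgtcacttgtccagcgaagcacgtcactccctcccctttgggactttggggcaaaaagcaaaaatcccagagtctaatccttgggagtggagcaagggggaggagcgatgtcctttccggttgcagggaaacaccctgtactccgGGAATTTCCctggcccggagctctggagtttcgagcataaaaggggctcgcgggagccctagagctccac
Cxcl3: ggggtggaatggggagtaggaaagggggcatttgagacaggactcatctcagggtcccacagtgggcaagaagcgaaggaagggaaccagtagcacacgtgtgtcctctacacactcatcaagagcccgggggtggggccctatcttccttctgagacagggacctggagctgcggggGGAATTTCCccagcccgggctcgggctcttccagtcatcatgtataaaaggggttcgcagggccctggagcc
Cxcl10: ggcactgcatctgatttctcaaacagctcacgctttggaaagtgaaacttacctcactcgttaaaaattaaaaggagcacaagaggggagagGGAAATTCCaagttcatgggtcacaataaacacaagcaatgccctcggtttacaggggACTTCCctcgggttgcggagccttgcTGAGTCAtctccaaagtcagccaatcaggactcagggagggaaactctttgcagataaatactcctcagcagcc
Cxcl9: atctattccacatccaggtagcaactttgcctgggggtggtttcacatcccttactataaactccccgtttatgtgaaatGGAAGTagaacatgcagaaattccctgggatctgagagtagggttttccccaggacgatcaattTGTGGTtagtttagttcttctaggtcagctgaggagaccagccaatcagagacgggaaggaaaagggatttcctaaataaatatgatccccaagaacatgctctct
Cxcr2: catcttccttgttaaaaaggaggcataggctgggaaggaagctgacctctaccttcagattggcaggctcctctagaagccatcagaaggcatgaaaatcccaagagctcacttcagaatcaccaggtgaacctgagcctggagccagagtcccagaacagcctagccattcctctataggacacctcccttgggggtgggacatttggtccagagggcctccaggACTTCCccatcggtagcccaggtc
These stretches lie at chr5:90903649-90903898 (Cxcl2, plus strand), chr5:90890995-90891244 (Cxcl1, plus), chr5:90785851-90786100 (Cxcl3, plus), chr5:92348890-92349139 (Cxcl10, minus), chr5:92328080-92328329 (Cxcl9, minus) and chr1:74153744-74153993 (Cxcr2, plus). The capitals mark an NF-kB match at −96 in Cxcl2, −70 in Cxcl1, −72 in Cxcl3 and −158 in Cxcl10, counted from the start to the first base of the match. Cxcl10 also held an ETS match at −100 and an AP-1 match at −74, Cxcl9 an ETS match at −170 and a RUNX match at −106, and Cxcr2 an ETS match at −24.

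In all, 7 short motifs were searched on both strands of the same 250 bases. Each start counted as a promoter of its own, which gave 46 for 39 of these genes and 21045 for 17274 protein-coding genes. The NF-kB motif was spelled GGANNTTCC and was found in 7 of 46 promoters of chemokine and receptor genes (15.2%), against 769 of 21045 promoters of all protein-coding genes (3.65%). The 7 promoters were those of Cxcl1, Cxcl2, Cxcl3, Cxcl10, Ccl1, Ccl12 and Ccr3, so 6 belonged to ligands and 1 to a receptor. In Ccl1 the NF-kB match overlapped an ETS match at the same first base, −195, and in Ccl12 an NF-kB match at −17 overlapped an ETS match at −14. The C/EBP motif TTGCNNAA was found in 15.2% of these promoters (9.18% of all), the ETS motif GGAAGT in 32.6% (20.5%), the RUNX motif TGTGGT in 17.4% (12.2%) and the AP-1 motif TGANTCA in 13.0% (6.17%). The HOX-PBX motif TGATTNAT was found in 2.17% (2.54% of all) and the MEIS motif TGACAG in 6.52% (15.0%). The C/EBP matches lay in Ccl27a (−138 and −213), Ccl27b (−77 and −118), Ccl21a, Ccl21d and Cxcl13. In Ccl27a and in Ccl27b, both positions are the same site, counted again because the windows of nearby starts overlap. A match describes the letters only, and promoters of genes that arose by duplication can share sequence.

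Promoters of chemokine and receptor genes carried peaks less often than promoters of protein-coding genes as a whole in each of the 8 libraries. The window reached from 250 bases before to 50 bases after the start, and 39 of the 53 genes had one in the table. A gene with several starts counted when any of them held a peak. In 4S-A 1 and 4S-A 2, 46.2% and 41.0% of these promoters held a peak, beside 59.2% and 58.2% of all promoters. The shares were 30.8%, 41.0% and 41.0% in KO 1 to KO 3, beside 53.1%, 55.9% and 58.2% of all. They were 30.8%, 30.8% and 43.6% in FL 1 to FL 3, beside 53.2%, 54.1% and 57.9% of all. Counting error alone is wide at 39 genes, and no test was made because genes are not replicates. KO libraries held on average 1.0 more of these promoters than FL libraries, which was within the spread between libraries, and the difference was 0 when all lists were trimmed to equal length.

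Of the 39 promoters, 9 held a peak in all 8 libraries (23.1%), 20 in none (51.3%) and 10 in some. Over all protein-coding genes with a promoter window, 49.6% held a peak in all 8 libraries and 37.5% in none. The 9 belonged to the receptor genes Cxcr4, Ccr1 and Cxcr3 and the ligand genes Ccl3, Ccl9, Cxcl2, Cxcl10, Ccl25 and Ccl27a. Not every start of Ccl25 and Ccl27a was open. Another Ccl25 start (250 bases before it at chr8:4349338-4349587) and another Ccl27a start (chr4:41770213-41770462) held no peak in any library. Among receptors of lymphocytes, 6 had a promoter window, and Ccr7, Ccr10 and Cxcr5 had none. Of the 6, the promoters of Ccr4, Ccr6, Ccr8, Ccr9 and Cxcr6 held no peak in any library, and Cxcr3 was the exception. So did 3 of 6 promoters of myeloid receptors lack a peak in every library, those of Cxcr1, Ccr1l1 and Ccr3. With 6 genes a class and 37.5% of all genes without a promoter peak, these classes cannot be ranked. Of the 10 that varied, Cxcl9 held a promoter peak in both 4S-A libraries and in no KO or FL library. Cxcr2 had one in 4S-A 1 and 4S-A 2, all KO libraries and FL 3, but not in FL 1 and FL 2. Ccr2, which encodes the CCL2 receptor of monocytes, had one in both 4S-A libraries, KO 2, KO 3 and FL 3. Ccl6, a mouse myeloid CC ligand, lacked one only in FL 1, and Cxcl12 and Cxcl14 lacked one only in KO 1. Cxcl1 had a promoter peak in 4S-A 1, KO 3 and FL 3, and Cxcl3 in FL 1. Ccl17, a ligand of CCR4, had one in both 4S-A libraries, KO 2, KO 3 and FL 3, and Ccl12 had one in 4S-A 1, KO 1, KO 2 and FL 3. The promoter peaks of Cxcr2, Ccr2, Cxcl1, Ccl17 and Ccl12 were thus in FL 3 but in neither FL library of the Mx1-Cre set, whose lists were shorter.

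Receptor genes were surrounded by more accessible regions than ligand genes. Over all 8 libraries, 147 regions lay around the 17 receptors, or 19.99 per 100 kb of window, and 171 around the 36 ligands, or 12.05 per 100 kb. The same density around all protein-coding genes was 7.682 per 100 kb. Those genes are longer, with a median of 17374 bp against 7223 bp for receptors and 3659 bp for ligands, so the windows differ in make-up. The marker lists named above ranged from 8.399 per 100 kb (B cell) to 19.69 (L-GMP), so a high density was not particular to chemokine and receptor genes. In single libraries, receptor windows held 15.23 and 14.69 regions per 100 kb in 4S-A, 7.617, 11.29 and 15.51 in the KO libraries (in order of number), and 7.889, 7.753 and 13.60 in FL 1 to FL 3. Ligand windows held 9.725 and 8.880 in 4S-A, 5.356, 7.259 and 8.880 in the KO libraries, and 5.144, 5.779 and 8.668 in FL 1 to FL 3. Receptor density exceeded ligand density in 8 of 8 libraries, by 1.974 to 6.630 regions per 100 kb, and both were above the density around all genes. The median difference of 4.482 was 2.737 with lists of equal length, 3.944 with only the regions nearest to a chemokine or receptor gene, and 2.613 without the stretch of chromosome 4 described next.

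**Figure D1:**
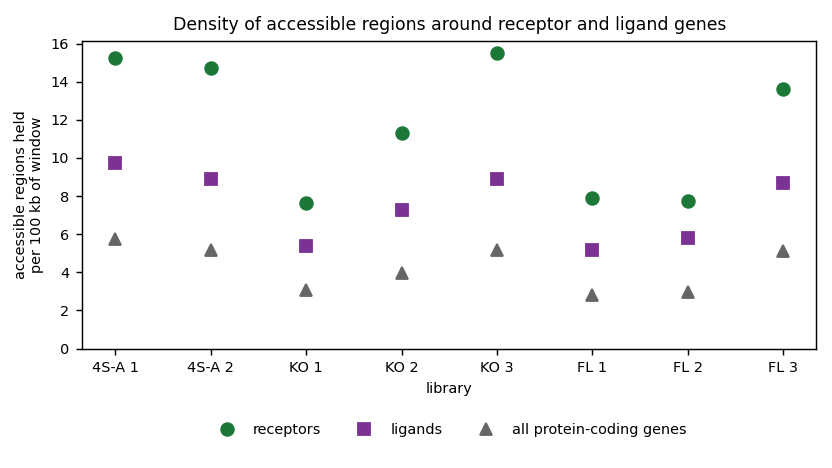
Accessible regions held per 100 kb of window (gene span plus 20 kb on each side, vertical axis) in each of the 8 libraries (horizontal axis), for 17 receptor genes (circles), 36 ligand genes (squares) and all protein-coding genes (triangles). Receptor windows lay above ligand windows in every library, from 7.617 against 5.356 in KO 1 to 15.51 against 8.880 in KO 3.

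Of the 53 genes, 7 had no peak within 20 kb in any library, and all 7 encode ligands. They were Ccl20, which attracts cells with CCR6, Cxcl13, which draws B cells into follicles, and Ccl21d, Ccl21b, Ccl27b, Ccl19 and Ccl21a. The last 5 lie together on chromosome 4 (chr4:41903613-42773991, mm10), and Ccl19 and the Ccl21 genes encode the ligands of CCR7. This 870.4 kb stretch held 0 accessible regions in any library although 16 protein-coding genes overlap it. Stretches of the same length on either side held 100 regions each, with 23 and 27 genes. The stretch contains near-identical gene copies, and whether multiply mapping reads were dropped there is not given in the sources used here and was not tested. Per library, 94.1 to 100% of receptor genes and 72.2 to 80.6% of ligand genes had a peak, beside 77.2 to 81.8% of all protein-coding genes. The lowest exact Clopper-Pearson 95% intervals were 71.3 to 99.85% for 16 of 17 receptors and 54.8 to 85.8% for 26 of 36 ligands, both in FL 1, and they cover counting error only. The median difference between receptors and ligands, 23.6 percentage points, was 11.6 without those 5 genes.

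Genes that stand within 100 kb of another member, 34 in all, were set beside the 19 that stand alone. A peak was found around 79.4 to 91.2% of clustered genes and 78.95% of single genes, a median difference of 6.35 points. This difference changed sign with a window of 5 kb (−2.79 points), so clustered and single genes could not be ranked. Over all libraries, clustered receptors had 19.11 regions per 100 kb and single receptors 20.75, and clustered ligands had 14.52 and single ligands 9.05.

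**Figure D2:**
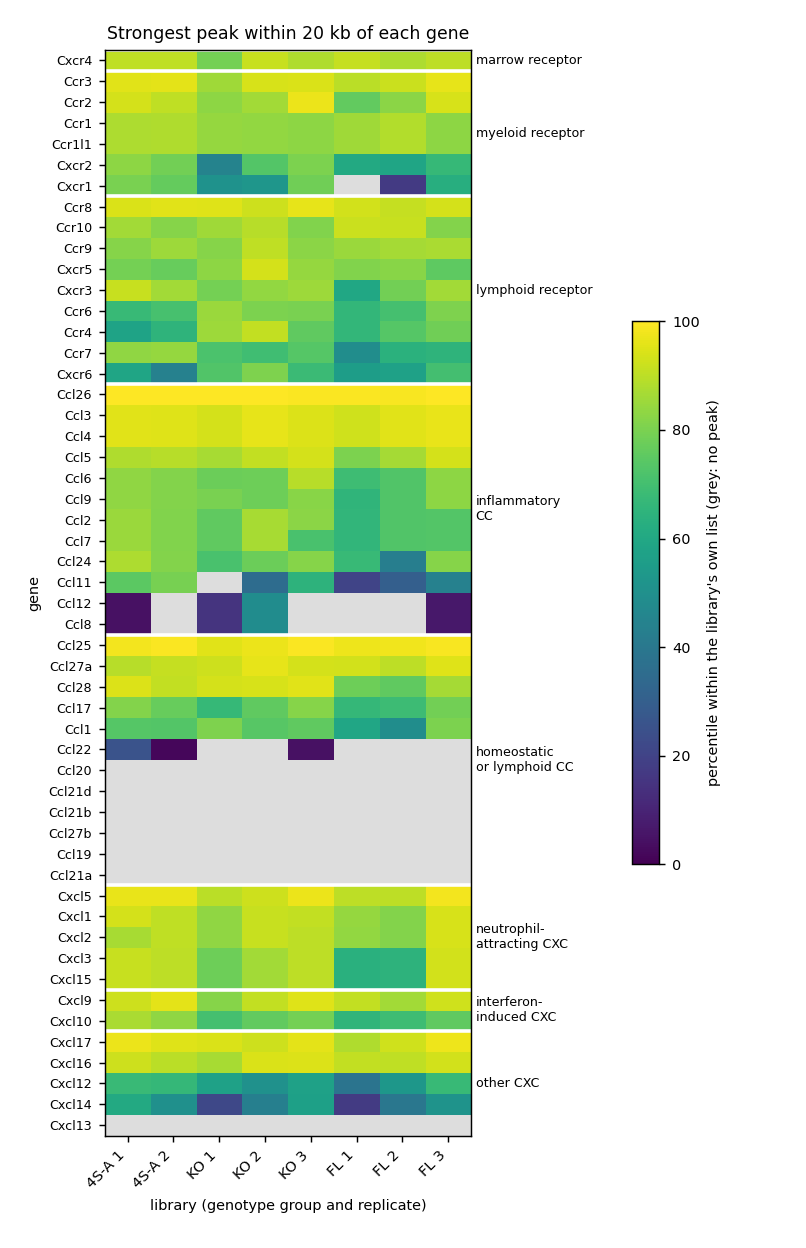
Percentile of the strongest peak within 20 kb of each of 52 genes (rows, grouped by role) in each library (columns, 4S-A, then KO, then FL), from 0 (dark) to 100 (yellow) within the library's own list, with grey for no peak. The 7 all-grey rows are the ligand genes without a peak, and neighbouring genes such as Ccl3 and Ccl4 share a peak.

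A core of 90 regions held a peak in all 8 libraries, which was 28.3% of the 318 regions beside 24.1% of all regions of the series. These 90 lay around 40 genes. The receptor genes included Cxcr2, Cxcr3, Cxcr4, Cxcr5, Cxcr6, Ccr1, Ccr1l1, Ccr2, Ccr3, Ccr4, Ccr6, Ccr7, Ccr8, Ccr9 and Ccr10, while Cxcr1 had none. The ligand genes were Cxcl1, Cxcl2, Cxcl3, Cxcl5, Cxcl9, Cxcl10, Cxcl12, Cxcl15, Cxcl16, Cxcl17, Ccl1, Ccl2, Ccl3, Ccl4, Ccl5, Ccl6, Ccl7, Ccl9, Ccl17, Ccl24, Ccl25, Ccl26, Ccl27a and Ccl28. For 24 of the 90 regions the nearest protein-coding gene was not a chemokine or receptor gene. The region of highest rank near any of them, at percentiles of 98.9 to 100 within 20 kb of Ccl26, was one of these and lay 193 bp from Hip1.

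Cxcr4, the receptor that retains progenitors in marrow, stands alone on chromosome 1 and had 10 regions, 3 of them in all libraries. Its window held 10 and 9 regions in 4S-A, 4, 4 and 8 in the KO libraries, and 4, 4 and 6 in FL 1 to FL 3. Here and below, the strongest region of a gene is the one of highest mean percentile over the libraries among its regions held by all 8, and another region may rank higher in a single library. The strongest Cxcr4 region (chr1:128569901-128571248) had percentiles of 90.5 and 90.5 in 4S-A, 72.8, 81.6 and 88.0 in KO, and 78.2, 81.7 and 89.7 in FL. A region 16.0 kb outside the gene (chr1:128608036-128608548) had 45.8 and 53.7 in 4S-A, 79.2, 91.4 and 78.4 in KO, and 91.1, 87.8 and 90.0 in FL. There the 4S-A libraries lay below every KO and FL library, and the values of KO and FL overlapped. When lists were trimmed to the shortest, which takes weak peaks away, this region was absent from 4S-A 1 and at 14.9 in 4S-A 2, against 61.0 to 87.7 in KO and 82.1 to 91.1 in FL.

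The genes of the myeloid receptors Ccr1, Ccr1l1 and Ccr3 stand side by side over 69.57 kb of chromosome 9, with Ccr2 beyond them. CCR1 binds CCL3 and CCL5 among others, CCR2 binds CCL2, and CCR3 is the receptor of eosinophils. Around the genes from Ccr1 to Ccr3, 26 regions were found, of which 20 and 19 were held in 4S-A, 10, 15 and 20 in the KO libraries, and 9, 9 and 17 in FL 1 to FL 3, and 5 were held by all. The longest list held the most of these regions in both KO and FL. The Ccr1 promoter region (chr9:123968311-123968957) ranged narrowly, with 85.7 and 82.3 in 4S-A, 84.3, 83.7 and 82.8 in KO, and 85.8, 88.4 and 83.0 in FL. The strongest region of Ccr2, 3622 bp outside the gene (chr9:124112174-124113140), had 93.5 and 89.5 in 4S-A, 82.9, 86.3 and 97.0 in KO, and 70.9, 82.8 and 94.0 in FL. The 3 groups overlapped at both. A region inside Ccr1l1 (chr9:123977077-123977707) had 87.6 and 88.2 in 4S-A, 19.4, 30.7 and 79.8 in KO, and 49.4, 64.3 and 79.0 in FL, so 4S-A lay above all others while KO and FL overlapped.

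**Figure D3:**
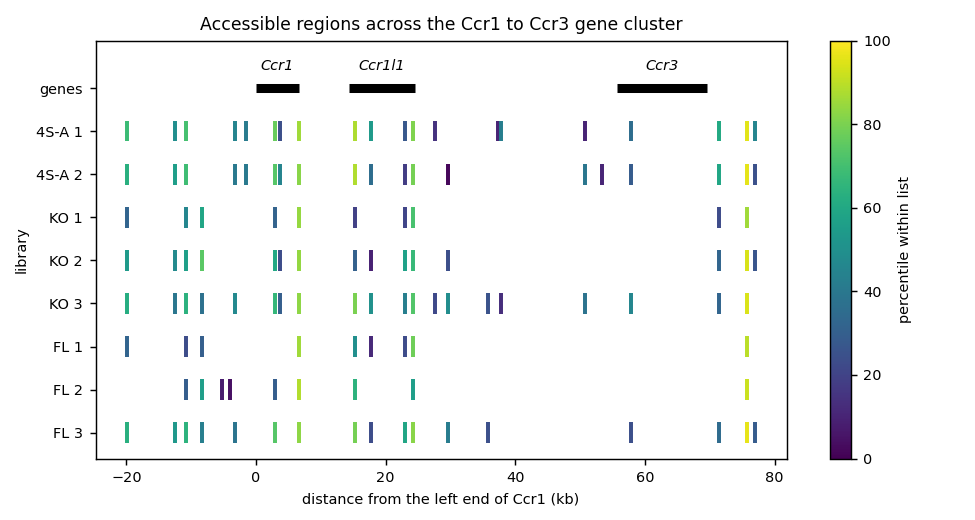
Regions across the stretch from Ccr1 to Ccr3 by distance from the left end of Ccr1 (kb, horizontal axis) in each library (rows, 4S-A, then KO, then FL), coloured by percentile within the list, with gene spans as black bars. The 4 Tie2-Cre libraries and KO 2 hold 15 to 20 regions and KO 1, FL 1 and FL 2 hold 9 to 10.

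Cxcr2, which lets neutrophils follow Cxcl1, Cxcl2 and Cxcl5 products, had 14 regions, and its neighbour Cxcr1 had 8. The strongest Cxcr2 region (chr1:74133678-74134486) lay 19886 bp outside the gene and inside Rufy4. It had 71.1 and 70.4 in 4S-A, 44.8, 73.1 and 75.6 in KO, and 60.8, 58.9 and 62.4 in FL, with KO on both sides of FL. Ccr7, which guides cells to lymph nodes, had 17 regions, the most of any receptor. A region inside Ccr7 (chr11:99149948-99150554) had 83.3 and 84.3 in 4S-A, 41.0, 58.7 and 73.7 in KO, and 17.9, 63.7 and 64.9 in FL. The 4S-A libraries lay above the rest there, and did so with lists of equal length, where KO and FL still overlapped.

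Among inflammatory CC ligands, all 12 genes had a peak in at least 1 library. Of these, 9 had one in all 8 (75.0%), near the 73.96% of all protein-coding genes. Ccl3 and Ccl4 encode macrophage inflammatory proteins, overlap in the gene table and share their regions. Their strongest region (chr11:83639547-83641585) had 95.5 and 95.0 in 4S-A, 93.6, 96.1 and 94.7 in KO, and 92.9, 95.7 and 96.5 in FL, and so stood near the top of every list without separating the groups. The strongest region of Ccl5, whose product recruits T cells and monocytes (chr11:83544009-83544956), had 88.1 and 89.3 in 4S-A, 86.9, 90.9 and 93.4 in KO, and 80.2, 86.3 and 93.4 in FL. The region 73 bp outside Ccl2, the main monocyte attractant (chr11:82035113-82035733), had 84.8 and 80.9 in 4S-A, 75.5, 86.8 and 71.3 in KO, and 66.0, 72.8 and 73.2 in FL. At Ccl5 the 3 groups overlapped, while at Ccl2 the 4S-A values lay above those of FL and KO overlapped both. With lists of equal length, 4S-A (69.2 and 64.9) and FL (66.0, 71.0 and 52.3) overlapped at Ccl2 too. Ccl9 and Ccl6, mouse CC ligands made by myeloid cells, had 17 and 18 regions, 6 of them in all 8 libraries for each gene. Their strongest region (chr11:83572103-83572621) had 79.4 and 81.5 in 4S-A, 77.5, 73.7 and 82.2 in KO, and 65.3, 73.0 and 83.1 in FL, again with overlap. At the weak end, the 1 region of Ccl12 and Ccl8 was held by 4 libraries, and Ccl11 had a peak in 7.

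Among CXC ligands, Cxcl12 had 9 regions, and the strongest (chr6:117166870-117167486) had 67.7 and 66.7 in 4S-A, 57.0, 50.6 and 57.3 in KO, and 31.4, 52.9 and 67.2 in FL. The region over the Cxcl2 promoter shown above (chr5:90903005-90904300) had 87.1 and 90.5 in 4S-A, 83.4, 91.4 and 90.1 in KO, and 83.9, 81.4 and 93.9 in FL. KO and FL overlapped at both. The Cxcl10 promoter region (chr5:92348716-92349192) had 75.0 and 78.9 in 4S-A, 64.9, 73.5 and 70.1 in KO, and 65.3, 68.9 and 72.9 in FL. The 4S-A values were the highest at Cxcl10, but overlapped the others with lists of equal length.

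The first comparison asked which regions were held by every library of one group and by none of the other. In KO against FL (3 against 3), no chemokine or receptor region was lost among 106 held by all FL libraries, beside 0.214% of all regions and 0.191% of those within 20 kb of any protein-coding gene. Among 122 held by all KO libraries, 1 region was gained (0.820%), beside 0.754% of all regions and 0.664% near genes, so the share was near the background. It lay 9286 bp outside Cxcl12 (chr6:117190460-117190817), with percentiles of 41.5, 36.7 and 19.7 in KO, no peak in FL, and 30.0 and 31.0 in 4S-A. With lists of equal length it was not called. Without FL 3, 15 of 122 regions would count as gained, beside 10.7% of all regions. Without KO 1 it would be 3 of 167 (2.42% of all), without FL 1 it would be 2 of 122 (0.914% of all), and without KO 3, 2 of 106 would count as lost (1.46% of all).

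Inside the Mx1-Cre set (2 against 2), 2 of 109 regions were lost in KO (1.83%), beside 2.07% of all regions and 1.87% near genes. One of them lay 713 bp from Ccl7, a monocyte-attracting ligand (chr11:82048054-82048406), with no peak in KO 1 and KO 2 and 20.4 and 30.4 in FL 1 and FL 2. It was not lost in the Tie2-Cre set, where KO 3 and FL 3 had 19.7 and 9.84. In the Mx1-Cre set 17 of 128 regions were gained in KO (13.3%), beside 13.5% of all regions and 12.5% near genes. By mean percentile in KO 1 and KO 2, the strongest lay 18794 bp from Ccr8 and nearest to Cx3cr1 (chr9:120073185-120073502), with 50.4 and 41.8 in KO 1 and KO 2. The next 4 lay near Cxcl10 (20.2 and 67.1), Ccr10 (36.8 and 49.7), Cxcr1 (51.1 and 34.3) and Ccr7 (32.3 and 52.3), and FL 3 held all 5. Without KO 1, whose list was the shorter of both KO lists, 45 of 186 regions would count as gained, beside 29.0% of all regions.

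Inside the Tie2-Cre set, KO 3 against FL 3 has 1 library a group and is a description. Of 223 regions, 22 were lost in KO 3 (9.87%), beside 14.4% of all regions and 13.5% near genes, and of 240 regions 39 were gained (16.2%), beside 15.3% of all and 14.8% near genes. The strongest lost regions by their percentile in FL 3 lay near Ccl5 (34.3), Ccl17 (31.7), Cxcl5, a neutrophil attractant (30.8), Cxcr5, which takes B cells to follicles (29.8), and Ccr3 (28.6). The strongest gained by their percentile in KO 3 lay near Ccl9 (58.8), Cxcl9 with Cxcl10 (54.2), Cxcr4 (41.4), Cxcl1 (41.2) and Ccl5 (40.1). The Cxcl1 region covers the start of the gene (chr5:90891159-90891618) and had no peak in KO 1, KO 2 or any FL library, since the promoter peak of FL 3 given above is a separate region upstream. The Cxcr4 region, 1204 bp outside the gene (chr1:128586876-128587136), had no peak in FL 3, with 48.4 and 44.5 in 4S-A and no peak in KO 1, KO 2, FL 1 or FL 2.

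In 4S-A against FL 3 (2 against 1), 20 of 223 regions were lost (8.97%), beside 11.7% of all regions and 11.1% near genes, and 34 of 217 were gained (15.7%), beside 16.4% of all and 14.9% near genes. By mean percentile in both 4S-A libraries, the strongest gained region lay between Cxcl9 and Cxcl10, 1373 bp from Cxcl10 and inside Art3, whose span also covers Cxcl10 (chr5:92345007-92345554). It had 87.1 and 83.2 in 4S-A and no peak in FL 3, and outside this comparison 54.2 in KO 3 and none in KO 1, KO 2, FL 1 or FL 2. The next 4 lay near Cxcr2 (65.6 and 61.7 in 4S-A), Cxcr1 (53.8 and 66.6), Ccl27a, a skin-homing ligand (54.7 and 63.2), and Cxcr5 (56.1 and 57.3), with no peak in FL 3. Those near Cxcr1 and Ccl27a were held by no library but both of 4S-A, while KO 3 had 5.76 at Cxcr2 and 30.5 at Cxcr5. Held by both 4S-A libraries alone were 15 of the 318 regions (4.72%), beside 5.95% of all regions. Conversely, 1 region was held by all KO and FL libraries and by neither of 4S-A (0.314%, beside 0.337% of all). This region of Ccr1 (chr9:123953588-123953927) had no peak in 4S-A, 58.9, 74.2 and 37.0 in KO, and 30.0, 55.8 and 42.8 in FL. The other 4 of the 5 strongest losses, by percentile in FL 3, lay near Ccl6 (43.1), Ccl17 (31.7), Cxcl5 (30.8) and Cxcr5 (29.8). KO 3 and 4S-A were set against the same FL 3 library, so their calls are not independent.

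**Figure D4:**
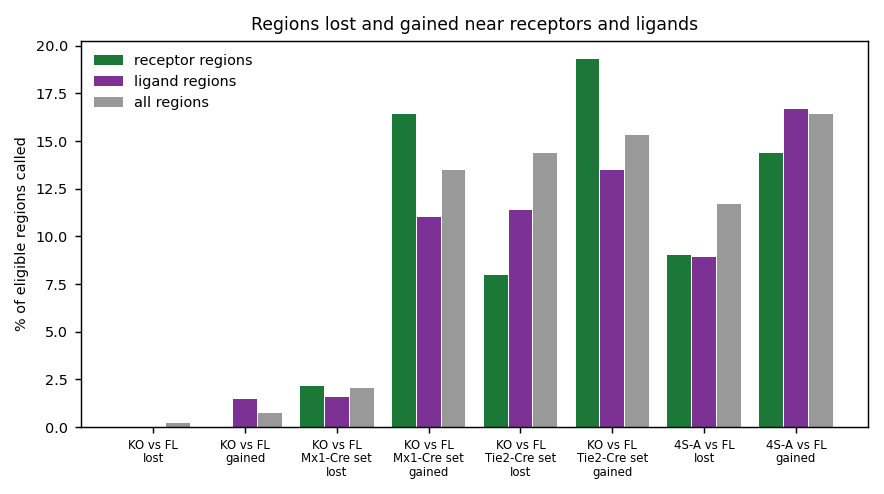
Percent of eligible regions called lost or gained (vertical axis) in each comparison (horizontal axis) for regions near receptors, near ligands and over the whole series. Receptor regions were gained in 19.3% and ligand regions in 13.5% of cases in KO 3 against FL 3, beside 15.3% of all regions.

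Losses near receptors and ligands were both less frequent than over all regions in the Tie2-Cre set, at 8.0% and 11.4% beside 14.4%, and in 4S-A, at 9.0% and 8.94% beside 11.7%. Gains lay on either side of the share over all regions. In the Mx1-Cre set, 9 of 55 receptor regions (16.4%) and 8 of 73 ligand regions (11.0%) were gained in KO, beside 13.5% of all regions. In the Tie2-Cre set the gained shares in KO were 19.3% and 13.5%, beside 15.3% of all. In 4S-A, 14.4% of receptor regions and 16.7% of ligand regions were gained, beside 16.4% of all. Receptors and ligands thus kept no fixed order, and the 4S-A ligand share was near that over all regions. Of the other genes of the chemokine family that the symbol rule leaves out, such as Cx3cr1, Xcr1, Pf4 and the atypical receptors, 9 of 11 had a peak in all 8 libraries, and 0 of 25 and 0 of 31 of their regions were lost and gained in KO against FL. Of 22 genes of chemokine signalling, such as Gnai2, Dock2, Rac2 and Arrb2, 21 had a peak in all 8 libraries. Of their regions, 0 of 169 were lost and 0 of 196 were gained in KO against FL. Over the whole series, 73.96% of protein-coding genes had a peak in all 8 libraries. Of all regions, 0.214% were lost and 0.754% gained in KO against FL, so few or no calls in lists of this size are near the background.

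The percentile of single regions was then compared between KO and FL, over the 91 chemokine and receptor regions held by all 6 libraries. In 7 of the 91 (7.69%) every KO library ranked above every FL library, beside 3.86% of all regions, and in 1 (1.10%) every KO library ranked below, beside 0.965%. Each had a two-sided exact permutation p = 0.1, the smallest that 3 against 3 allow, so none passes a threshold of 0.05. Compared within pairs of libraries with the same number, 26 of the 91 moved one way in all 3 pairs, beside 27.4% of all regions. Whether equal numbers mark true pairs is not known.

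The region inside Ccl28, a ligand of mucosal tissues (chr13:119631458-119632149), had 93.5, 93.9 and 95.4 in KO and 78.0, 75.7 and 86.5 in FL, with 94.8 and 91.0 in 4S-A. KO averaged 94.3 ± 1.01 and FL 80.1 ± 5.71 (SD, n = 3 each, exact permutation p = 0.1), and the groups stayed apart with lists of equal length. A region 6495 bp outside the same gene (chr13:119616932-119617615) went the other way, at 11.3, 14.3 and 1.91 in KO and 29.9, 35.8 and 47.3 in FL, with 1.85 and 5.60 in 4S-A. It is the 1 region that was lower in KO, and with lists of equal length KO 2 and KO 3 held no peak there. The Ccl25 region 2553 bp outside the gene of that thymic and gut ligand (chr8:4322501-4322829) had 67.6, 71.7 and 73.0 in KO and 23.6, 35.4 and 62.7 in FL. It also stayed apart with lists of equal length, and its nearest gene is Elavl1. The region 10677 bp outside Ccr6, which encodes the CCL20 receptor (chr17:8225093-8226096), had 84.9, 80.2 and 80.1 in KO and 66.3, 66.9 and 72.7 in FL.

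The other 4 lay near Ccl24 with Ccl26, whose products attract eosinophils, near Cxcr5, near Ccl9 with Ccl6, and near Ccr7. Near Ccl24, KO averaged 65.2 ± 3.27 and FL 51.0 ± 7.40, and near Ccr7, KO averaged 66.2 ± 7.49 and FL 49.1 ± 7.91 (SD, n = 3 each). Near Cxcr5, KO averaged 86.8 ± 5.73 and FL 79.4 ± 3.82, and near Ccl9, KO averaged 57.2 ± 6.91 and FL 43.4 ± 6.02 (SD, n = 3 each). With lists of equal length, 2 of the 7 higher regions stayed apart, those of Ccl28 and Ccl25, and KO and FL overlapped at the other 5. Over the 77 regions then held by all 6 libraries, 5 ranked higher and 2 lower in every KO library, and 6.84% of all regions then ranked one way or the other.

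**Figure D5:**
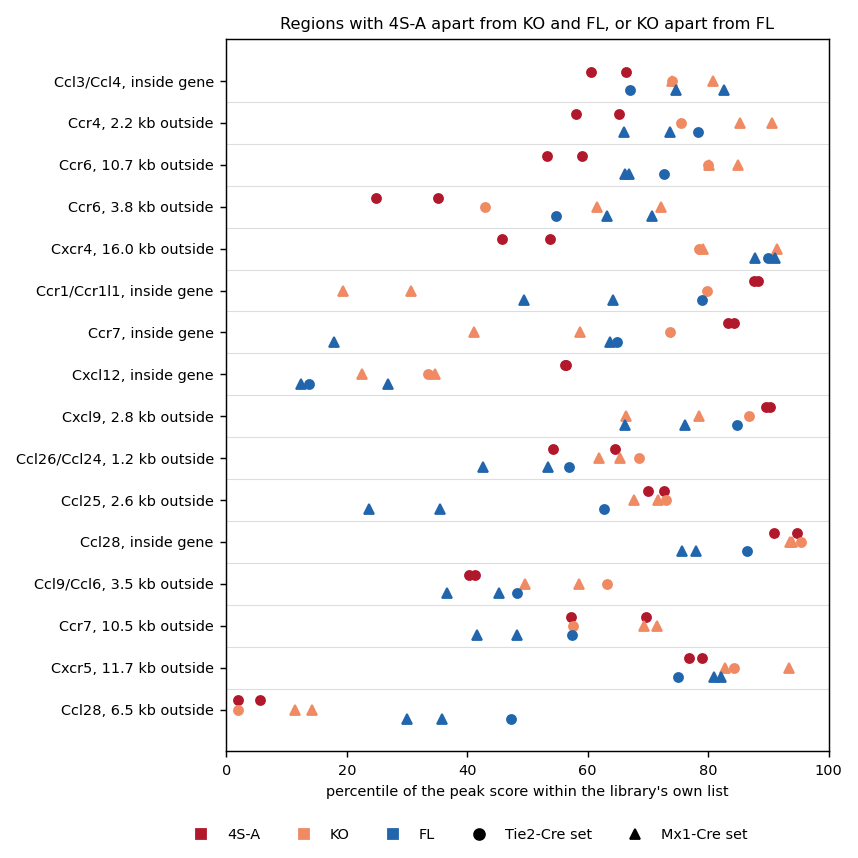
Percentiles (horizontal axis) of 16 regions (rows) in each library, with 4S-A above KO above FL within a row and the sets by symbol. In the top 5 rows 4S-A lies below every KO and FL library, as at Cxcr4 with 45.8 and 53.7 in 4S-A, and the next 4 show regions where it lies above.

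In 16 of the 90 regions held by all 8 libraries (17.8%) both 4S-A libraries ranked above every KO and FL library, beside 17.0% of all regions, and in 5 (5.56%) both ranked below, beside 4.37%. Both shares were near the background. The 4S-A lists were the longest, and with lists of equal length 4 of the 16 stayed above, near Cxcl9, Ccl25, Ccl5 and inside Ccr7. Over the 72 regions then held by all 8 libraries, 4 ranked above and 11 below, and 20.2% of all regions then ranked above or below. Of the 5 below, 3 stayed below and the other 2 could not be compared, since at least 1 library then held no peak. The Cxcl9 region (chr5:92318148-92319105) had 90.3 and 89.6 in 4S-A, 78.4, 66.3 and 86.8 in KO, and 66.1, 76.2 and 84.8 in FL. A region inside Cxcl12 (chr6:117173915-117174403) had 56.3 and 56.2 in 4S-A, 22.5, 34.6 and 33.4 in KO, and 12.4, 26.9 and 13.6 in FL, but KO 3 and FL 3 held no peak there with lists of equal length.

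All 5 regions that ranked below in 4S-A lay near receptors of lymphocytes, Cxcr4 or Ccl4. Beside the Cxcr4 region given above, the Ccr4 region 2162 bp outside the gene of the CCL17 and CCL22 receptor (chr9:114507276-114508072) had 58.0 and 65.2 in 4S-A, 85.3, 90.7 and 75.5 in KO, and 66.0, 73.7 and 78.3 in FL. The Ccr6 region 10677 bp outside the gene had 59.0 and 53.2 in 4S-A, so that it ranked highest in KO and lowest in 4S-A. A second Ccr6 region (chr17:8232090-8232702) had 35.2 and 24.9 in 4S-A, 61.5, 72.2 and 42.9 in KO, and 63.2, 70.7 and 54.7 in FL. The Ccl4 region (chr11:83662204-83662794) had 60.5 and 66.3 in 4S-A, 80.8, 74.1 and 74.1 in KO, and 74.7, 82.6 and 67.0 in FL. The regions of Ccr4, Ccl4 and the first Ccr6 region stayed below with lists of equal length. Other regions near the same kinds of gene went the other way and ranked above in 4S-A. They were the strongest Cxcr4 region, another Ccl4 region (chr11:83648247-83649956, 92.4 and 92.3 in 4S-A) and regions of Ccr7, Cxcr5 and Cxcr3. Of these, only the Ccr7 region stayed above with lists of equal length. Both 4S-A libraries belong to the Tie2-Cre set, and no other genotype of that set has more than 1 library.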

How the data were processed

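ATAC-seq peaks had been called by the authors for each library on its own, with 1 list deposited per library. The submitters' processing notes name MACS2, featureCounts, Picard, Bowtie2 2.2.9 and Trim Galore 0.4.4, on mm10, with neither roles nor settings. The score the authors deposited was 10 times the −log10 q, truncated. The deposited fold is a ratio of signal at the summit to that library's own local background, and the −log10 p, −log10 q and summit offset of each peak were also deposited. As no value was scaled across libraries, peaks were ranked only inside their own list. List length is the only depth shown.

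Peaks outside the 19 autosomes and X were dropped, and the rest were merged over the 8 lists where they shared at least 1 bp. A region was lost when every FL library and no library of the other group held a peak in it, and gained when the reverse held. Genes came from a RefSeq table of GRCm38.p6, and sequences from a RefSeq promoter table of the same build. Of its protein-coding genes, 108 with positions in the first 3000000 bases, where no peak lay, were taken as not placed, Ccl21c among them, and Cxcl11 is not protein-coding in it. Ccl21d was put with the homeostatic ligands. Percentiles of single regions were compared by exact permutation over libraries. The calls were tested on simulated peaks. Alternatives were equal-length lists, windows of 5 and 50 kb, merging by summits within 250 bp, a −log10 q of at least 3, ranks by the deposited fold, other cluster distances, and each library left out. Equal-length lists for densities and promoters, and values without the stretch of chromosome 4, were chosen after seeing the data. Python 3 with pandas, numpy, scipy and matplotlib was used.

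As an alternative, KO and FL libraries were paired by number. Libraries of the same number deviated together (correlations 0.265, 0.195 and 0.523 over 34313 regions), but this does not show that the numbers mark pairs. Inside the Mx1-Cre set, KO 1 with FL 2 (0.246) and KO 2 with FL 1 (0.14) correlated about as much, so number and set cannot be told apart there. The labels give only the numbers, and the peak names inside the KO 1 and KO 2 lists carry other numbers.

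Genes and lists were chosen with earlier results of these data known. Always named were Cxcr4, Cxcr2, Ccr1, Ccr2, Ccr7, Cxcl12, Cxcl2, Cxcl10, Ccl2, Ccl3, Ccl4, Ccl5, Ccl6 and Ccl9. Added were genes with a lost or gained region in KO against FL, those of the 5 strongest lost and gained regions of each other comparison by mean percentile in the libraries of that comparison that hold them, those with a region in all 8 libraries, and those with no peak. Of the chosen genes, 1 is included in the counts and not reported by name here. Regions whose percentiles separated the groups were described after their values were seen.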

Additional observations from a re-analysis of the deposited data

Results flagged for a closer look

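The KO minus FL difference in percentile went opposite ways in the 2 sets at 9 of the regions described here, in that both KO libraries of the Mx1-Cre set lay on 1 side of both FL libraries while KO 3 lay on the other side of FL 3. The difference between the sets was not tested, and the Tie2-Cre set has 1 library a group. Of the 91 chemokine and receptor regions held by all 6 libraries, 28 did so (30.8%), beside 24.1% of all regions. The value given for each is the Mx1-Cre difference minus the Tie2-Cre difference, in percentile points. Near Ccr1, which encodes a receptor for CCL3, they were 24.7 (chr9:123951007-123951660), 29.4 (chr9:123953588-123953927) and, inside the neighbouring Ccr1l1, −32.6. Near Ccl9 and Ccl6 they were 7.32 and, inside Ccl9, 21.7. The region near Ccr4 had 20.9, that of Cxcr3 13.1, that of Ccl2 and Ccl7 13.6, and that of Ccl5 5.70. At 5 of the 9 the Tie2-Cre difference was under 1 percentile point in size, at Ccl5 (−0.071), the first Ccr1 region (−0.329), Cxcr3 (−0.646), Ccr1l1 (0.773) and the first Ccl9 and Ccl6 region (−0.873), so the opposite sign there rests on near-equal values of KO 3 and FL 3. In 8 of the 9, KO ranked above FL in the Mx1-Cre set, and only at Ccr1l1 did it rank below.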

How the results depend on the processing

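Counts below are of lost and gained regions in KO unless 4S-A is named. Of 95 alternative values, 52 stayed within the limits set for a stable value. With equal-length lists, gained regions were 0 in KO against FL, 6 lost and 11 gained within the Mx1-Cre libraries, 18 gained within the Tie2-Cre pair, and 11 lost and 20 gained in 4S-A. In that order these were of 93, 107, 111, 140, 138 and 133 eligible regions. The shares over all regions were 0.706, 5.01, 7.88, 12.7, 13.9 and 13.8%. The receptor minus ligand share of genes with a peak was then 26.4 points. With a 5 kb window the counts were 0 gained in KO against FL, 9 gained within the Mx1-Cre libraries, 10 lost and 22 gained within the Tie2-Cre pair, and 7 lost and 22 gained in 4S-A, the receptor minus ligand share was 30.6, and the cluster minus single share turned to −2.79. With 50 kb they were 5 and 28 within the Mx1-Cre libraries, 37 and 62 within the Tie2-Cre pair, and 31 and 59 in 4S-A, with a receptor minus ligand share of 18.1. A smaller or larger window holds fewer or more regions by construction. Merging by summits gave 5 of 115 lost in the Mx1-Cre set, beside 3.47% of all regions. Chaining clusters over 50 and 200 kb gave cluster minus single shares of 13.9 and 0.980. Without near-identical copies the receptor minus ligand share was 17.4, and without the stretch of chromosome 4 it was 11.6 and the density difference 2.61. Leaving out 1 library at a time gave 0 to 2 lost and 1 to 15 gained in KO against FL, 3 to 12 lost and 19 to 45 gained in the Mx1-Cre set, 29 to 31 lost and 42 to 56 gained in 4S-A, 9 to 37 regions with separated KO and FL percentiles and 29 to 34 with 4S-A apart. The gained count of 15 (of 122, beside 10.7% of all regions) and the separated count of 37 (of 93, beside 33.2%) came without FL 3. Without 4S-A 2, 56 of 250 were gained in 4S-A, beside 24.3% of all regions, and 34 of 90 lay apart, beside 38.6%. The shares over all regions thus rose along with these counts. With the replicate block, pairing KO and FL by number, 26 regions were separated (18 higher, 8 lower), and lost and gained stayed at 0 and 1. Ranked by the deposited fold, 6 were higher and 2 lower. The cause of the other shifts was not tested. Weak peaks are missed first in the shorter Mx1-Cre lists, so absence there means not detected at that list length.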
